A study of Mus musculus with 6 samples.

Results

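Rbm45 and 9 other genes of mouse chromosome 2, Gpr155, Ola1, Scrn3, Cir1, Wipf1, Chn1, Atf2, Cdca7 and Hat1, were followed in embryos labelled as knockouts of Sp3, the transcription factor whose gene lies among them. The members were all probe sets annotated to 1 of these genes alone. They came to 22 of 45037 probe sets, for 10 of 18193 genes. The list was chosen by the measured knockout against wildtype difference in the case of Rbm45, and the others were added for their place near Sp3 with their values already seen. Their differences are therefore given as a description, with no test. The samples were 3 labelled Sp3 knockout, also called Sp3 null, and 3 labelled wildtype, each labelled as a single heart of stage E12.5 and lettered a to c in each genotype. The tissue label went against the marker genes given below. Total RNA of each was labelled with biotin in 1 cycle and hybridised to 1 mouse 430 2.0 oligonucleotide array, on which a gene is read by 1 or more probe sets.

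The strain of the embryos, the litters they came from and the construction of the mutated allele are not given in the labels. Genes close to a mutated locus are inherited together with it. The loss of Sp3 and the stretch of chromosome that carries the mutated allele therefore cannot be told apart in these groups. In whole tissue, fewer cells of a type and less RNA per cell cannot be told apart either.

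Sp3 is a zinc finger protein that binds GC boxes, short GC-rich elements of many promoters, and that can activate or repress its targets. Its neighbours on chromosome 2 have unrelated biochemical roles, and what they share is their place. In the order of protein-coding genes in the RefSeq annotation of GRCm38.p6, Cdca7 is the nearest gene on the side of lower coordinates and Hat1 lies 9 places away on that side. On the other side Ola1 is the nearest gene, followed by Cir1 at 3 places, Scrn3 at 4, Gpr155 at 5, Wipf1 at 6, Chn1 at 8 and Atf2 at 9. Rbm45 lies 32 places away, beyond the Hoxd cluster.

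The promoters of the members differ in how many GC boxes they hold. RefSeq promoter windows of GRCm38.p6, which run from 250 bases before to 50 bases after a start, were searched for GGGCGG on both strands (CCGCCC on the strand shown), with overlapping matches allowed. Of 32851 windows in all, 35.7% held at least 1 match. All 10 members had a window, 13 windows in all, of which 9 held a match and 4 held none. By gene, 9 of the 10 had a match in at least 1 window. The exception was Rbm45. 4 windows are shown, each 5′ to 3′ on the strand of the gene, with the matches in capitals. They are those of Rbm45, of Gpr155 with the most matches, of Ola1 next to Sp3, and of Scrn3, whose start lies beside that of Cir1.
Rbm45 (chr2:76369734-76370033, plus strand): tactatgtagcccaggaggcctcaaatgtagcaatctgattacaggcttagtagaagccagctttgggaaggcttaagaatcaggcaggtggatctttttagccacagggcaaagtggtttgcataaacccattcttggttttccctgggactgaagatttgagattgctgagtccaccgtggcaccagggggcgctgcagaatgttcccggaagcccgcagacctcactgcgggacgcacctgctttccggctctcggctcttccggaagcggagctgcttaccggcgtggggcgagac
Gpr155 (chr2:73386431-73386730, minus strand): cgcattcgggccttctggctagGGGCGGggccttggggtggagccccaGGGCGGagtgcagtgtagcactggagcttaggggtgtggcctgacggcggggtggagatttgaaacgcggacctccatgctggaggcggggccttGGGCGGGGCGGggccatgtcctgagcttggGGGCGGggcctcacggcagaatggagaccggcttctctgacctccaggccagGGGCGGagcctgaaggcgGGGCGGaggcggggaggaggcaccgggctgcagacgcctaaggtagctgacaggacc
Ola1 (chr2:73214398-73214697, minus strand): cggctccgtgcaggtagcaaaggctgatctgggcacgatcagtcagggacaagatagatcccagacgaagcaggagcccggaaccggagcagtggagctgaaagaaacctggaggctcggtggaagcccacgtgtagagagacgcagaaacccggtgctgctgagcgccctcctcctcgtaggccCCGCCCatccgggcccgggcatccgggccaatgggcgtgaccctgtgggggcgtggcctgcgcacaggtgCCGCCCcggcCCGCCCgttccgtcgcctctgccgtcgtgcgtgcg
Scrn3 (chr2:73312402-73312701, plus strand): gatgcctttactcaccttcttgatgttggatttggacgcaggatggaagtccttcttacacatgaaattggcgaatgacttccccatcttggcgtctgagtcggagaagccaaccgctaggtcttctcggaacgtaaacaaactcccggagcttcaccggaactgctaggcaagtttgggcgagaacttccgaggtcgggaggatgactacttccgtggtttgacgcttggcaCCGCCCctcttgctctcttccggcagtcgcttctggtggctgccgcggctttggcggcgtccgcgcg

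Gpr155 held 7 matches, all on the strand of the gene, more than 99.4% of all windows. Ola1 held 3, Atf2 held 4, and Scrn3, Cir1, Cdca7 and Hat1 held 1 each. The first of 3 Wipf1 windows held 1 and the first of 2 Chn1 windows held 2, while the other windows of both genes held 0. Sp3 itself has 2 windows, with 2 and 5 matches. The window of Rbm45 had a GC content of 55.3%, against a median of 52.7% over all windows and 70.3% in that of Gpr155. Scrn3 and Cir1 are read in opposite directions from starts 60 bases apart. Their windows overlap by 159 bases and share the 1 match that each holds. A match is a description of letters and shows no binding.

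**Figure D1:**
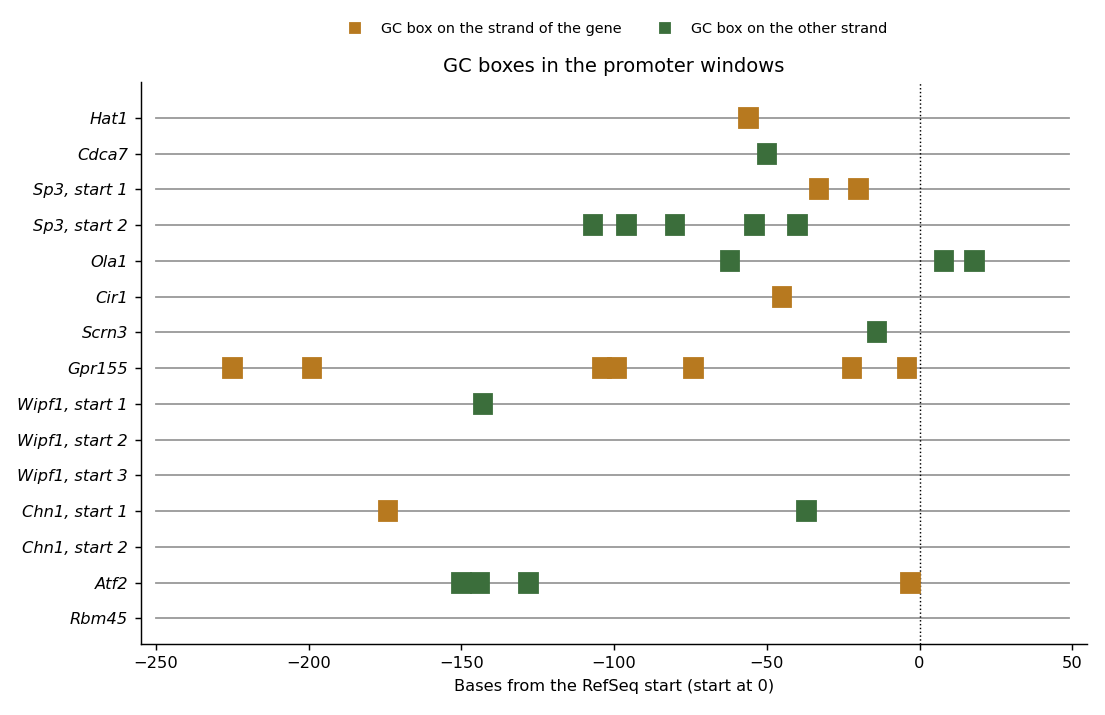
Map of GC box matches (filled blocks) in the RefSeq promoter windows of Sp3 and the 10 members, in bases from the start, 1 line per annotated start, with genes in chromosome order from top to bottom. The Gpr155 window holds 7 blocks and the Rbm45 window none.

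Before the members, the knocked-out gene and the tissue were checked. The single Sp3 probe set read 336, 324 and 392 intensity units in knockout a, b and c, against 935, 871 and 742 in wildtype a, b and c, with no overlap. The log2 difference was -1.27, with a limma adjusted p of 0.00254 with an intensity trend and 0.279 without one. The sources used here do not say which part of the transcript was deleted. The markers did not bear out the tissue label, and the tissue is called here by its label only. Markers of heart muscle were low: over 11 genes their median level lay at the 38.0th percentile of all probe sets, with 6 below the 50th. The highest were Actc1 at the 86.9th and Myl7 at the 78.6th. The median of 6 measured liver markers lay at the 99.5th percentile, and that of 7 measured erythroid markers at the 99.2th. Of the erythroid markers 1, Hba-a1, lay below the 50th, at the 26.0th. The mean log2 level of the heart muscle list ran from 4.79 to 4.91 in knockout and from 3.65 to 4.05 in wildtype, with no overlap. By gene, groups did not overlap in 4 of the 11, Myh6, Myl2, Myl3 and Ttn, where the share over all genes was 15.1%. Nppa and Tnni3 were lower in knockout. Myh6 was dim, with means of 7.87 units in knockout and 2.13 in wildtype, and Myl2 with 10.5 and 4.23. The liver list ran from 11.36 to 11.46 in knockout and from 11.45 to 11.69 in wildtype. Groups did not overlap in 2 of its 6 genes, Alb and Apob, both lower in knockout, by log2 differences of -0.18 and -0.40. The erythroid list ran from 10.32 to 10.83 in knockout and from 10.62 to 10.69 in wildtype, with groups apart in 0 of its 7 genes. The part of these levels in the values below was not tested.

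Of the 22 member probe sets, 7 had groups that did not overlap, with all 3 knockout arrays on one side of all 3 wildtype arrays. Over all probe sets this share was 13.0%, and over those above the median level 15.4%. Of the 22, 2 were higher in knockout without overlap, where the share over all probe sets was 6.15%. Lower without overlap were 5 of the 22, where that share was 6.89%. Since the list was drawn up from this contrast, nothing is read from these counts. The 7 belonged to 5 genes, namely Rbm45, Chn1, Ola1 with 2, Scrn3 with 2 and Gpr155. Over all 22 the median log2 difference was -0.07, against 0.02 over all probe sets, and 9 were above 0, where 52.2% of all were. Of the members, 19 probe sets lay above the median level of the array, and the 3 below it were both of Chn1 and 1 of Ola1.

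**Figure D2:**
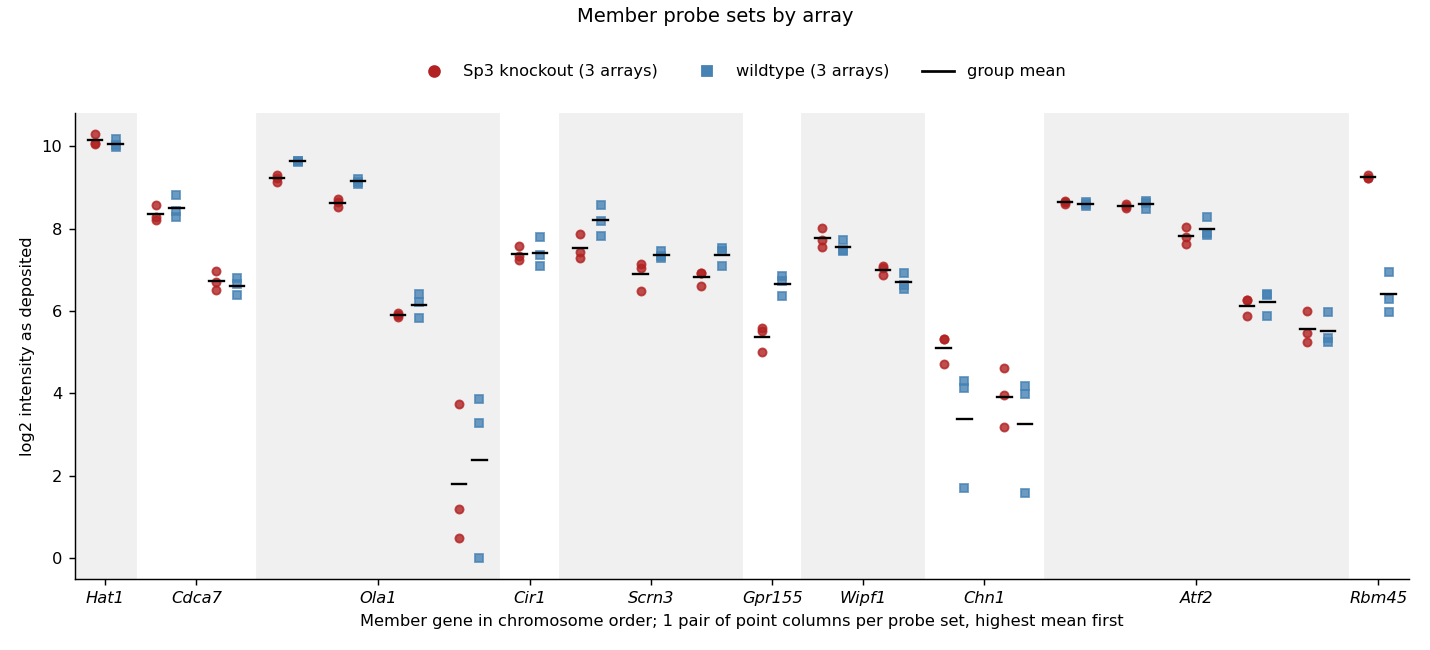
The log2 intensity of each of the 22 member probe sets in every array, with Sp3 knockout (circles) left of wildtype (squares) and bars for the means of 3 arrays. Rbm45 stands apart, with knockout at 9.26 and wildtype at 6.41, and the pairs of Atf2, Cdca7, Cir1 and Hat1 overlap.

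Rbm45 encodes a protein with RNA recognition motifs that is expressed in the developing nervous system and, in human neurodegeneration, is found in protein inclusions together with TDP-43. Its probe set read 602, 599 and 637 intensity units in knockout a, b and c, against 78.5, 62.8 and 124 in wildtype a, b and c. Every knockout array lay far above every wildtype array, and the lowest knockout and highest wildtype values were 2.27 apart on the log2 scale. Knockout averaged 9.26 ± 0.05 and wildtype 6.41 ± 0.50 log2 units (mean ± SD, n = 3 each). The log2 difference of 2.85 is a 7.22-fold higher intensity in knockout. It is the size for which the gene was chosen: of the 22518 probe sets above the median level, 1, this one and 0.00444% of them, differed by as much, where 0.973% differed by more than 1. When 1 array was left out, the log2 difference lay between 2.63 and 3.12. Rbm45 did not have the largest difference on the whole array. Below the median level, a probe set of Dmc1 averaged 84.8 units in knockout and 1.61 in wildtype, a log2 difference of 5.99.

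The spread of Rbm45 was unequal between the groups. The knockout arrays lay between 9.23 and 9.32 on the log2 scale, and the wildtype arrays between 5.97 and 6.95. Among the 3676 probe sets within 0.5 log2 units of its mean level, the median SD was 0.16 in knockout and 0.16 in wildtype. The knockout SD of Rbm45 was at the 8.22th percentile of these probe sets and its wildtype SD at the 95.8th. The mean level used lies below every knockout value and above every wildtype value, and scatter was wider at low levels. These percentiles are therefore not matched to the level of either group. The array holds 1 probe set for Rbm45, so its value has no other reading.

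**Figure D3:**
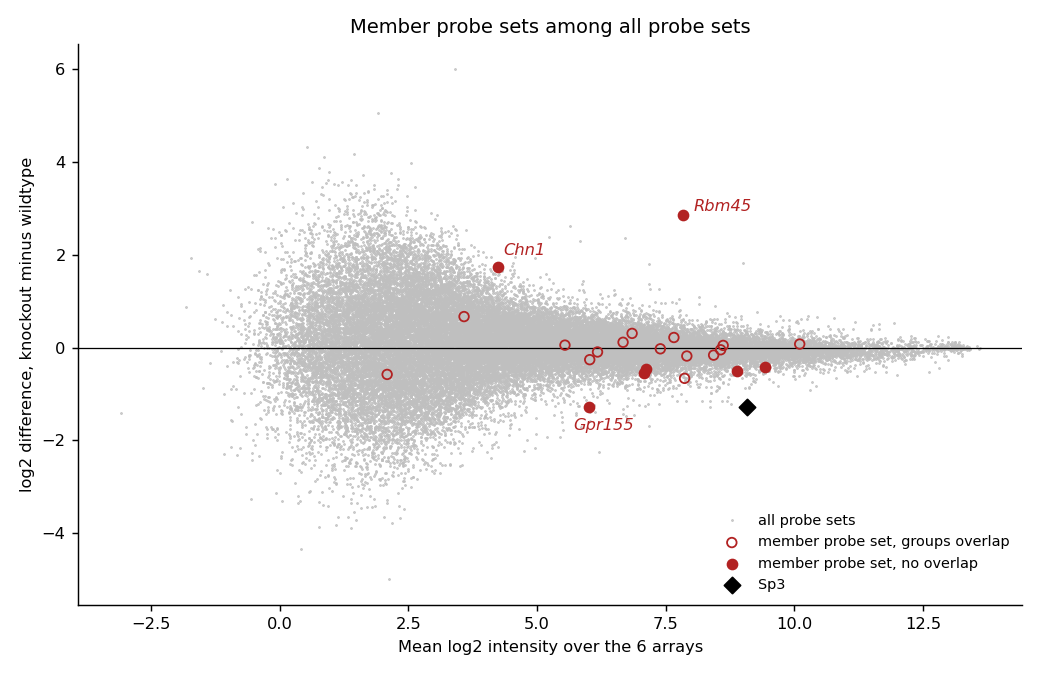
The log2 difference of knockout minus wildtype (vertical) against the mean log2 intensity over 6 arrays (horizontal) for all 45037 probe sets (grey) and the 22 member probe sets (red; filled where groups do not overlap). The grey cloud is wide at low levels and narrow at high ones, Rbm45 lies above it at 2.85, Gpr155 lies at -1.28, and the brighter Chn1 probe set at 1.73 lies where the cloud is wide.

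The probe sets whose profile over the 6 arrays was most like that of Rbm45 were sought among all those above the median level. Likeness was the root mean square difference of log2 values, each probe set centred on its own mean. The nearest was Tcfl5, a germline transcription factor gene on another stretch of chromosome 2, at 0.34 log2 units. It was followed by Dmc1, the meiotic recombinase, on chromosome 15, at 0.39. Pnliprp2, a pancreatic lipase-related gene on chromosome 19, had 2 probe sets at 0.43 and 0.54, and Itga4, the integrin alpha 4 chain, had 1 at 0.53. All 5 were higher in each knockout array than in any wildtype array, by log2 differences of 1.82 to 2.62. Their direction followed from their choice by likeness to Rbm45. These values use the same 6 arrays as that of Rbm45 and add no separate evidence.

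Of the genes between Sp3 and Wipf1, Gpr155, Ola1 and Scrn3 each had at least 1 probe set that read lower in every knockout array than in any wildtype array, and Cir1 had none. Gpr155 is a membrane protein of the lysosome that in human cells senses cholesterol and acts on the growth kinase mTORC1. It read 48.2, 45.9 and 32.0 intensity units in knockout a, b and c, against 116, 106 and 81.9 in wildtype a, b and c. The 3 knockout values were all below the 3 wildtype values, and array c was the lowest of each group. Knockout averaged 5.37 ± 0.32 and wildtype 6.65 ± 0.26 log2 units (mean ± SD, n = 3 each), and the difference was -1.28. The wildtype intensity was thus 2.42 times that in knockout. The difference lay between -1.42 and -1.09 when 1 array was left out. As with Rbm45, there was 1 probe set.

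Ola1, the gene next to Sp3, encodes an ATPase of the Obg family of nucleotide-binding proteins. Its brightest probe set read 566, 627 and 599 units in knockout a, b and c, against 798, 784 and 801 in wildtype a, b and c. The next read 404, 370 and 418 units in knockout, against 547, 564 and 591 in wildtype. Both pairs of groups were apart, with log2 differences of -0.41 and -0.51, against SDs of at most 0.09 in either group. The third read 61.7, 57.3 and 59.5 units in knockout, against 57.1, 74.2 and 85.2 in wildtype, and overlapped because wildtype a lay below all knockout arrays. The last was dim, between 1.00 and 14.4 units in all 6 arrays, and overlapped. All 4 log2 differences were below 0, from -0.58 to -0.26, and that of the dim probe set turned to 0.16 without wildtype c.

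Scrn3 belongs to the secernin family, named for a cytosolic protein of mast cell secretion. Its brightest probe set read 235, 174 and 157 units in knockout a, b and c, against 381, 292 and 228 in wildtype a, b and c. These groups touched, since knockout a lay just above wildtype c. The other probe sets were apart: 131, 142 and 89.4 units in knockout against 162, 176 and 156 in wildtype at one, and 120, 122 and 98.1 units in knockout against 186, 175 and 135 in wildtype at the other. The 3 log2 differences were -0.66, -0.47 and -0.54, so the readings of this gene were close to each other. Without knockout c the second of them was -0.27.

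Cir1, which stands beside Scrn3, read alike in both groups. Its product is a corepressor that joins the Notch pathway factor RBPJ to histone deacetylases. The probe set read 151, 191 and 162 units in knockout a, b and c, against 164, 222 and 135 in wildtype a, b and c. The knockout values lay inside the range of the wildtype values, with a log2 difference of -0.03, which lay between -0.19 and 0.17 when 1 array was left out. Scrn3 and Cir1 thus share the promoter stretch printed above, with groups apart at 2 of 3 Scrn3 probe sets and at 0 of 1 Cir1 probe sets. No test of the difference between the pair was made.

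Wipf1 encodes WIP, a protein that binds and stabilises the actin regulator WASP. Its brighter probe set read 211, 188 and 261 units in knockout a, b and c, against 176, 177 and 211 in wildtype. The other read 131, 118 and 136 units in knockout, against 99.4, 92.3 and 121 in wildtype. Both overlapped narrowly, with log2 differences of 0.22 and 0.31, and the second pair of groups came apart after quantile normalization or median centring.

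Chn1 encodes alpha-chimaerin, which turns off the small GTPase Rac and acts in axon guidance. Its probe set of higher mean read 39.6, 26.0 and 39.7 units in knockout a, b and c, against 19.8, 3.22 and 17.4 in wildtype a, b and c. The groups did not overlap, and wildtype b was far below the other wildtype arrays. The log2 difference was 1.73 and was 0.89 without wildtype b, or 0.83 with 16 units added before log2. This probe set lay at the 46.5th percentile of level, where readings scatter widely, so its size is not exact. Wildtype b was also the array in which the heart muscle list was lowest, at 3.65, and the part of that in the value was not tested. The other probe set read 15.6, 24.3 and 9.08 units in knockout, against 18.0, 15.8 and 3.00 in wildtype, and overlapped. Its log2 difference of 0.67 turned to -0.16 without wildtype c.

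Atf2 encodes a leucine zipper transcription factor that is switched on by the stress kinases JNK and p38. It was read by 5 probe sets, all overlapping, with log2 differences between -0.18 and 0.05. The brightest read 408, 389 and 401 units in knockout a, b and c, against 399, 373 and 388 in wildtype a, b and c. Knockout averaged 8.64 ± 0.03 and wildtype 8.59 ± 0.05 log2 units (mean ± SD, n = 3 each). The sign of this small difference turned with median centring, to -0.03.

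Cdca7 and Hat1 lie on the side of lower coordinates. Cdca7 is a MYC-responsive gene whose product works with the chromatin remodeller HELLS. Its brighter probe set read 312, 295 and 379 units in knockout a, b and c, against 345, 313 and 451 in wildtype a, b and c, and the groups overlapped. The other read 104, 91.0 and 126 units in knockout, against 83.9, 101 and 111 in wildtype. Both log2 differences were small and had opposite signs, at -0.16 and 0.11. Hat1, the enzyme that acetylates newly made histone H4, read 1057, 1264 and 1082 units in knockout, against 1045, 1015 and 1164 in wildtype. The log2 difference was 0.08, with overlap, and it was 0.00 after median centring.

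Agreement between probe sets could be judged for 6 genes. In 4 of them, Ola1, Scrn3, Wipf1 and Chn1, all probe sets differed in one direction, lower in knockout for Ola1 and Scrn3 and higher for Wipf1 and Chn1. In Atf2 and Cdca7 the signs were mixed around 0. The other 4 genes, Rbm45, Gpr155, Cir1 and Hat1, had 1 probe set each.

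The other genes of the interval were set beside the members. From Hat1 to Rbm45 the reference lists 42 protein-coding genes, of which 31 are neither members nor Sp3, and 26 of these had a probe set of their own. By the probe set of highest mean, limma called 0 of the 26 at an adjusted p under 0.05, with 1 at an unadjusted p under 0.05, both without and with the intensity trend. Over all probe sets limma called 0% without the trend and 0.0311% with it, and 5.99% and 7.16% had an unadjusted p under 0.05. With 1 probe set per gene, as for the 26, limma called 0 of 18193 genes without the trend and 9 with it. An unadjusted p under 0.05 was found for 1078 and 1585 of them. Groups did not overlap in 3 of the 26, where the share over all genes was 15.1%. These were Hoxd10, a homeobox gene, Evx2, a homeobox gene at the end of the Hoxd cluster, and Nfe2l2, the gene of the stress response factor NRF2.

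Hoxd10 read 3.19, 7.02 and 13.0 units in knockout a, b and c, against 1.17, 0.874 and 1.46 in wildtype, near the bottom of the scale. Evx2 read 11.6, 9.99 and 5.08 units in knockout, against 12.8, 16.1 and 14.0 in wildtype. Nfe2l2 read 616, 605 and 493 units in knockout, against 629, 622 and 739 in wildtype. The gap between the Nfe2l2 groups was narrow beside the spread within them, and its log2 difference was -0.22. Of the 43 probe sets of these genes, 1 passed with the trend, and it belonged to Itga6. Groups did not overlap in 7 of the 43, or 16.3%, beside 13.0% of all probe sets.

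Integrin genes inside the interval and just beyond Rbm45 had probe sets that differed among themselves. So did other interval genes such as Pdk1 and Hoxd8, neither of which passed. A Pdk1 probe set below the median level read 4.20, 11.7 and 8.82 units in knockout against 36.2, 41.2 and 40.3 in wildtype. Its log2 difference was -2.37, and the other Pdk1 probe sets overlapped, with differences from 0.24 to 0.46. The dimmer Hoxd8 probe set had groups apart at 1.85, and the brighter overlapped at 0.40. Itga6 lies 5 places from Sp3 on the side of lower coordinates. Its called probe set read 137, 144 and 149 units in knockout against 317, 289 and 347 in wildtype, with a limma adjusted p of 0.00992 with the trend and 0.271 without it. Its other probe set differed by -0.06. Itga4 lies 45 places away on the other side, beyond Rbm45. One of its 5 probe sets was higher in knockout by 1.82, and the other 4 overlapped, with log2 differences between -0.45 and 0.35.

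**Figure D4:**
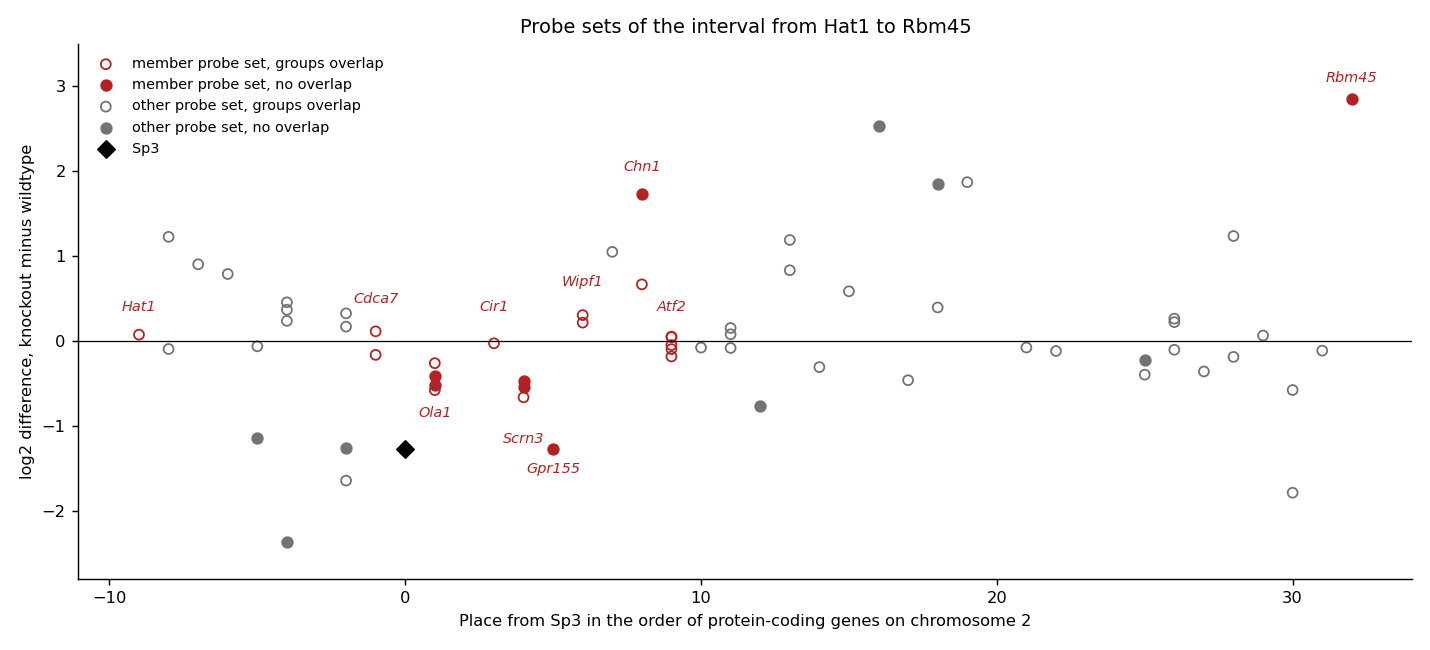
The log2 difference of knockout minus wildtype for every probe set from Hat1 to Rbm45 (vertical), by the place of its gene from Sp3 among protein-coding genes (horizontal), with members in red and filled points where groups do not overlap. Ola1, Scrn3 and Gpr155 lie below 0 within 5 places of Sp3, and Rbm45 lies highest at 32 places.

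Distance from Sp3 was then followed along the chromosome, with 1 probe set per gene. Among the 20 measured genes nearest to Sp3, 10 on each side, groups did not overlap in 4, or 20%. In the next 4 bands of 20 genes the number was 3, 3, 1 and 3. Over 1282 measured protein-coding genes of chromosome 2 other than Sp3 the share was 14.7%. The 4 in the nearest band were Dync1i2 and the members Ola1, Gpr155 and Chn1. All members except Rbm45 lie in that band and were listed with their values already seen, so nothing is read from its count. Genes above the median level numbered 16 in the nearest band and 7, 13, 11 and 11 in the next. Within 150 measured genes on either side of Sp3, 198 genes lay above the median level, Sp3 included. Of these, 5 differed by more than 1 on the log2 scale, namely Sp3, Gpr155, Rbm45, Ttn at 1.23 and Cd82 at -1.15. Among all probe sets above the median level, 0.973% did so. Sp3 is the knocked-out gene, and Rbm45 and Gpr155 were listed with their values already seen, so nothing is read from this count. Ttn, the giant sarcomere protein, is also a member of the heart muscle list. Ttn and Cd82 were named after their values were seen.

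**Figure D5:**
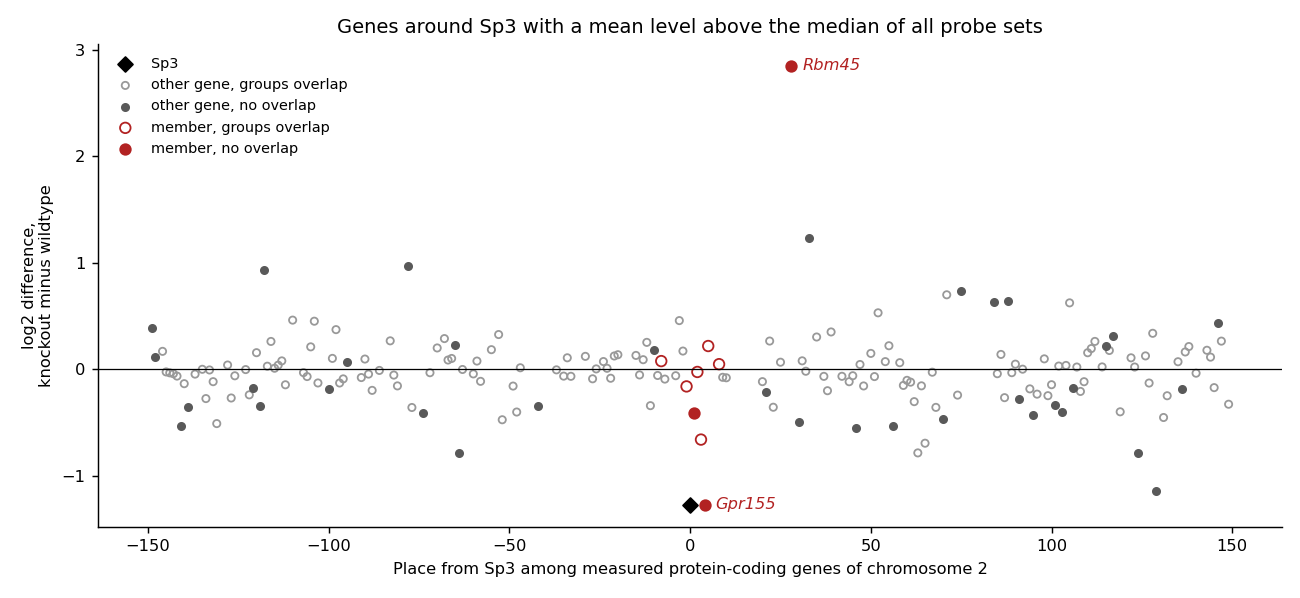
The log2 difference of knockout minus wildtype (vertical) for genes above the median level within 150 measured genes on either side of Sp3 (horizontal), with the 9 members above that level in red and filled points where groups do not overlap. Most genes lie within 1 of the zero line, Sp3 lies at -1.27, Gpr155 at -1.28, and Rbm45 lies at 2.85.

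Relatives and partners of the members elsewhere in the genome were examined as 2 lists. Paralogues numbered 8, all measured, and protein partners or upstream kinases numbered 20, of which 19 were measured. By limma 0 of the 27 passed at an adjusted p under 0.05, with or without the trend, and 2 without and 3 with the trend had an unadjusted p under 0.05. Of all 18193 genes, 1078 without and 1585 with the trend had such an unadjusted p. Groups did not overlap in 6 of the 27, or 22.2%, beside 15.1% of all genes. The median log2 difference of the 27 was -0.03, and that of all genes -0.02.

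Scrn2, a paralogue of Scrn3, read 32.0, 22.0 and 39.5 units in knockout a, b and c, against 50.7, 47.4 and 51.7 in wildtype, a log2 difference of -0.72. Depdc5, a subunit of the GATOR1 complex through which human GPR155 acts, differed by -0.38. Jun, a dimerisation partner of Atf2, read 142, 115 and 165 units in knockout against 105, 79.9 and 96.6 in wildtype, and its relative Jund had a log2 difference of 0.32. These genes were named for groups that do not overlap, and none passed the test. Mapk14, the kinase p38 alpha, and Rbbp4, a histone chaperone, had groups apart with differences of only -0.10 and -0.07.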

How the data were processed

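The 6 arrays were grouped by their titles. The values deposited by the authors are linear intensities, from 0.0562 to 12897, with medians per array of 22.5 to 26.7. GCOS and RMA are named in the submitters' processing notes, with neither version nor role, so how the values were scaled is unknown. No pair of arrays had more than 1 identical value. Whether embryos came from separate litters is not stated. The p-values thus cover the spread among these arrays alone, and 3 per group limit precision.

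Intensities were put on a log2 scale without further normalization, after 64 control probe sets had been removed. By the platform annotation 34945 probe sets had 1 gene, 932 had several and 9160 had none. All 10 members matched the RefSeq tables of GRCm38.p6. As no build is named in the files, genes are placed by order alone. limma 3.58.1 (R 4.3.3, lmFit and eBayes, group as only term, two-sided) was fitted to 45037 probe sets, and Benjamini-Hochberg adjusted p under 0.05 was called. A fit with an intensity trend and robust estimation was the alternative quoted. The brightest probe set stood for each gene. In a simulation with 200 of 45037 probe sets changed, all above the median level, the fit without the trend recovered 0% of changes of 1 and of 2 log2 units. The fit with the trend recovered 15% and 58%, and called 3 unchanged probe sets.

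Members and gene lists were chosen with earlier results of these data known. Named genes were the members, Sp3, up to 8 interval genes and up to 6 paralogues or partners with groups apart, ranked by difference, and the 5 probe sets most like Rbm45. Further settings tried were other scalings (quantile, median), 16 units added before log2, a filter on dim probe sets, weighted arrays, the letter as a block, averaged probe sets and the removal of each array.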

Additional observations from a re-analysis of the deposited data

How the results depend on the processing

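Of 45037 probe sets limma called 0 without a trend, and also 0 with quantile or median scaling, with dim probe sets left out, with array weights, with the letter as a replicate block, or without any 1 array (0 to 0). It called 14 with the intensity trend, and 1, of Dmc1, with 16 units added. The trend with the letter as a replicate block, chosen after seeing the data, called 258, 52 higher and 206 lower in knockout. Deviations from the group means, over probe sets above the median level, correlated by 0.0095 for a, 0.31 for b and 0.44 for c. Between unlike letters the correlations ran from -0.38 to 0.13, and knockout a correlated best with wildtype b. Like letters thus went together for b and c and not for a. Whether the letters stand for pairs is not given in the labels. Leaving out 1 array with the trend, also chosen after seeing the data, gave between 3 and 24 calls: 3 without knockout a, 7 without knockout c or without wildtype a, 11 without wildtype b, 13 without knockout b and 24 without wildtype c. For the other genes of the interval, and for the paralogues and partners, the count was 0 in each planned setting, the trend and each left-out array without it included, and the trend with the block or with an array left out was not run for them. Counting any probe set of an interval gene with the trend, a setting added after seeing the data, gave 1, Itga6. Member probe sets with groups apart numbered 7, where 13.0% of all probe sets were apart. The number was 8 after quantile normalization (13.1% of all), 9 after median centring (14.1%) and 6 of 19 without dim probe sets (15.4%). Leaving out 1 array gave 8 to 11, where 21.2% to 28.2% of all probe sets were apart, the highest of both without wildtype c. Of 106 recomputed log2 differences of the member genes 101 moved by less than 1 SD, and the 5 that moved more were of Ola1 (-0.34 with quantile and -0.49 with median scaling) and Atf2 (0.12 and -0.03, and -0.04 as a mean of probe sets). The letter as a block returned the same differences, as it must in this balanced design, and these are among the 101. The sign changed in some setting for Atf2, Cir1 and Hat1, and for none of the 4 genes whose probe set of highest mean had groups apart. For those 4, leaving out 1 array or adding 16 units cannot change the sign, so their outcome was largely fixed in advance. Dim probe sets, such as those of Chn1, limit the sizes given.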

Other observations

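Of the 14 probe sets that limma called over the whole array with the intensity trend, 13 could be placed on a chromosome, and 5 of these lay on chromosome 2. They belonged to Sp3, Itga6, Rbm45, Itga4 and Tcfl5. Chromosome 2 held 8.08% of the 34741 probe sets with a place. Within 45 gene places on either side of Sp3 there were 4 of the 13, where 0.509% of placed probe sets lay. Tcfl5 lay far from Sp3, 1210 places away. The distance of 45 places was set by the place of Itga4, itself among the calls, after these were seen. Sp3 is the knocked-out gene and Rbm45 was chosen for its difference, so its call adds no support. Nothing is therefore read from either count, and no test of them was made. The 4 did not share a direction, with Rbm45 and Itga4 higher and Sp3 and Itga6 lower in knockout.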
